A study of Mus musculus with 4 samples.

Results

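The genes described here encode proteins of the spliceosome and the classical splicing regulators of mouse. They were taken by name: every row whose symbol begins with Srsf, Hnrnp, Sf3a, Sf3b, Snrp, Prpf or U2af, without hyphenated names and without Snrpn. The rule gave 68 of the 32592 genes in the table, and all 68 passed the filter on low counts. They fall into 5 families, with 11 SR proteins, 20 hnRNP proteins, 12 snRNP core proteins, 12 SF3 and U2AF proteins and 13 PRP factors. The 3 hyphenated rows, all annotated as processed pseudogenes, lay between 0 and 0.0736 normalized counts. The row Snrpert is also annotated as a processed pseudogene, but its name meets the rule and it was kept.

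RNA came from CCE, an embryonic stem cell line from 129/Sv mice that was kept on gelatin with leukemia inhibitory factor and no feeder layer. Cultures had received a short hairpin RNA by infection, either 1 of 2 against Eif4a2 (sheIF4A2-2, sheIF4A2-3) or 1 of 2 controls (shLuc, shEV), and all groups were selected with puromycin at 1 µg/mL for 3 days and collected on day 4.5. There were 2 libraries labelled knockdown and 2 labelled control, and which hairpin went to which sample is not labelled. Whether replicates were separate cultures is not stated either, so p-values reflect the spread between these 4 samples, and that spread may be technical.

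Splicing removes introns in steps that each of these families serves. The snRNP core proteins (Sm proteins and the specific proteins of the U1 and U2 particles) hold the small nuclear RNAs, U2AF and the SF3 complexes recognise the 3′ splice site and the branch point, and the PRP factors build, activate and rearrange the spliceosome. SR proteins bind exonic enhancers and mostly promote exon inclusion, whereas hnRNP proteins package nascent RNA and often repress exons. Many SR and hnRNP genes control their own mRNA through cassette exons, often ultraconserved, that carry a stop codon, called poison exons, whose inclusion sends the transcript to nonsense-mediated decay (NMD).

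Transcripts of this kind are annotated for part of the genes studied. An NMD transcript is annotated in GENCODE M21 for 34 of the 68 genes (50%), against 24.7% of all 14890 genes tested, and for 9 of the 11 SR genes. Inner exons of NMD transcripts that hold the stop codon were kept if they overlapped no exon of the gene's protein-coding transcripts. Such a cassette exon was present in 16 of the 68 genes. They were 5 SR, 5 PRP, 2 hnRNP, 2 SF3 and U2AF, and 2 snRNP core genes. Transcripts of other classes were not checked for these exons, and the share over all genes was not computed. The sequences below are the exon starts up to the stop codon, in capitals, for 3 SR genes and 1 PRP gene, and are shown because inclusion of such an exon turns a coding transcript into a decay substrate. They are the exons at chr17:29039454-29039909 (plus strand, 456 bp) for Srsf3, chr17:80204622-80205081 (minus, 460 bp) for Srsf7, chr3:158024123-158024231 (minus, 109 bp) for Srsf11 and chr12:65043543-65043611 (plus, 69 bp) for Prpf39, in GRCm38.
Srsf3: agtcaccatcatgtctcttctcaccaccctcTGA
Srsf7: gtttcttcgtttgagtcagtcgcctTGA
Srsf11: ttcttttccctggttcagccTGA
Prpf39: gtgcgtTAA
In Prpf39 the stop follows 6 bases into the exon, while in Srsf3 the exon runs on from a stop that ends at base 34. The deposited counts are per gene, so the share of each transcript that carried these exons was not measured.

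The 4 libraries differed in depth and in how closely replicates matched. Whole reads could be recovered from the deposited values and came to 10646302 and 12009899 in knockdown 1 and 2, and to 13681765 and 4604200 in control 1 and 2. A floor of 3 reads lay between 0.221 and 0.679 normalized counts. Knockdown 1 and 2 differed by a median of 0.05 on the log2 scale over the splicing genes, and control 1 and 2 by 0.16. Eif4a2, the targeted RNA helicase, stood at 753 and 814 normalized counts in the labelled knockdown libraries and at 531 and 379 in the labelled control libraries. It was thus higher where the label says knockdown, 783 ± 43.5 against 455 ± 107 (SD, n = 2 each; log2 change 0.80, SE 0.15, limma adjusted p = 0.014, or 0.0581 without a variance trend). Every direction below is that of the library labelled knockdown relative to the library labelled control, and it does not stand for a loss of Eif4a2 mRNA.

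Of the 8 embryonic stem cell markers all were detected, and their summed level was 8046 and 7767 in the labelled knockdown libraries and 10605 and 10046 in the labelled control libraries. Sox2, Zfp42 and Esrrb fell. The summed level of 10 fibroblast markers was 56.6 and 61.5 against 35.0 and 34.8, with Lum and Dcn at 0 in all 4 libraries, and Col1a1 and Pdgfrb rose. The part of these differences in the results on splicing genes was not tested, and in bulk RNA fewer cells of a type and less RNA per cell cannot be told apart.

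Among the 68 splicing genes, 5 fell and 3 rose at a limma adjusted p below 0.05, adjusted over all 14890 genes tested, and 60 did not pass. Srsf3, Hnrnpk, Prpf39 and Prpf6 were among those that fell, and Srsf5, Prpf8 and Prpf40b rose. The share that fell was 7.35%, where 12.4% of all genes did, and the share that rose was 4.41%, where 10.5% of all genes did. Calls in either direction thus numbered 8 of 68, below the 23% of all genes. Changes were also small: the log2 changes of the splicing genes ran from -0.61 to 0.62 with an SD of 0.24, against an SD of 0.48 over all genes. Only Prpf39 and Srsf5 passed 1.5-fold, 2.94% of the 68 genes against 18.6% of all genes, and 0 passed 2-fold. The splicing genes were also more abundant, with a median level of 139.9 normalized counts against 25.4 for all genes tested. Their median log2 difference between replicates was 0.050 (knockdown) and 0.164 (control), against 0.095 and 0.198 for all genes. The part of level and replicate spread in the smaller changes was not tested.

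The splicing genes leaned to lower levels without most of them passing the test. Their median log2 change was -0.19, against -0.01 for all genes, and 47 of 68 (69.1%) were negative, against 51.2% of all genes. Both libraries labelled knockdown lay below both labelled control for 31 genes (45.6%), where 34.6% of all genes did so. They lay above both for 12 genes (17.6%), where 32.1% of all genes did so, and for 25 genes the groups overlapped. The median depended on the scaling, since with library size only it was -0.068 while the median of all genes moved by 0.11 to 0.10. With that scaling 3 splicing genes fell and 6 rose, beside 6.69% and 14.5% of all genes.

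**Figure D1:**
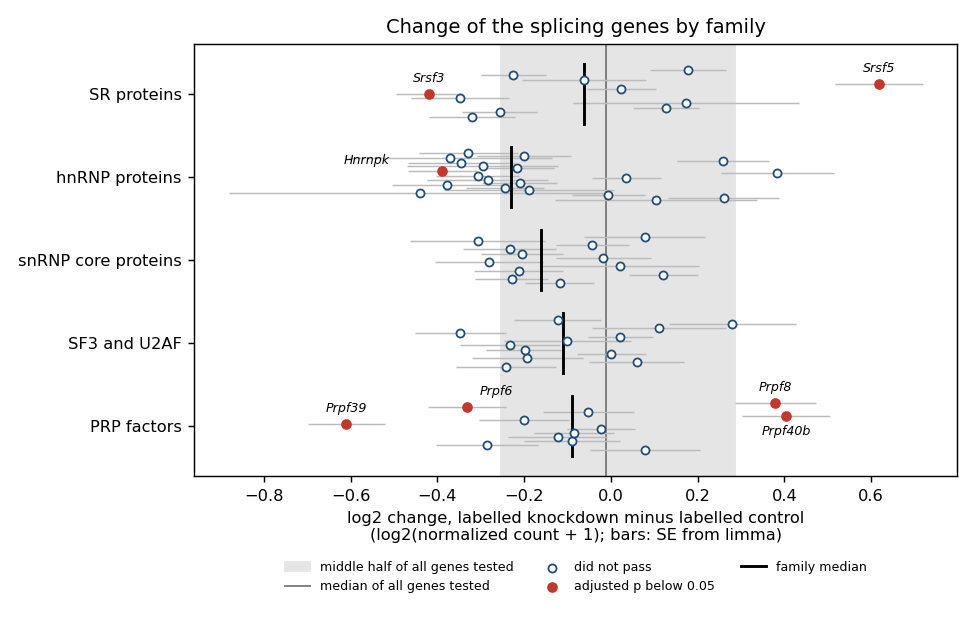
Log2 change of 67 splicing genes, labelled knockdown minus labelled control, by family; bars are SEs from limma, filled points passed the adjusted p of 0.05, black ticks are family medians and the grey band holds the middle 50% of all genes tested. Most points lie inside the band, the hnRNP median is the lowest at -0.23, and Prpf39 and Srsf5 lie farthest out.

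Control 2 stood apart from the other 3 libraries for these genes. It held the highest value of the 4 for 38 of the 68 genes (55.9%), against 29.9% of all genes. The summed level of the 68 genes was 16976 and 16813 normalized counts in the labelled knockdown libraries, 17093 in control 1 and 20633 in control 2. The hnRNP genes carried most of that gap, with sums of 8073, 7923, 8024 and 10566 in the same order. For the PRP factors the sums were 2361, 2364, 2197 and 2409, so control 1 was the lowest and control 2 the highest. The sums of the snRNP core genes differed little, at 928 and 909.6 against 985 and 986. As a share of all normalized counts in a library, the 68 genes held 1.80% and 1.80% against 1.70% and 1.98%. The PRP factors held 0.250% and 0.253% against 0.218% and 0.231%, so by share both libraries labelled knockdown lay above both controls. Prpf8 was the largest single part of the PRP sums, at 1061 and 1088 normalized counts against 776 and 879.6. Of the 13 PRP factors, 10 had a negative log2 change, so the order by share does not describe most of the family. Control 2 was also the shallowest library, and whether depth has a part in its higher sums was not tested.

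**Figure D2:**
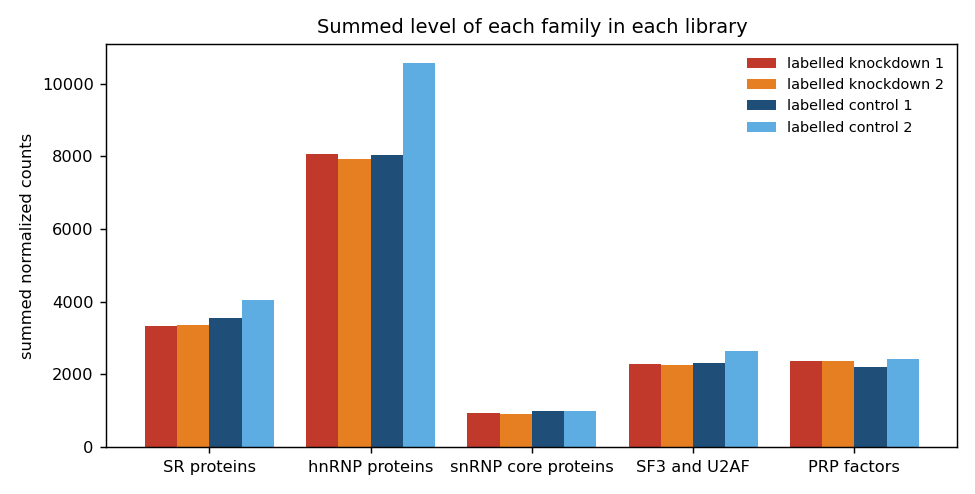
Summed normalized counts of each family in each of the 4 libraries. The hnRNP bar of control 2 reaches 10566, while the hnRNP bars of the other 3 libraries lie between 7923 and 8073.

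The counts of calls moved with each library left out. Without control 1, 36 splicing genes fell and 7 rose, beside 26.5% and 25.4% of all genes, and the median was -0.24. Without control 2, 19 fell and 11 rose, beside 24.4% and 21.3%, and the median was -0.070. Without knockdown 1 there was 1 of each, Prpf39 and Srsf5, beside 4.39% and 3.3%. Without knockdown 2, limma called 0 as lower, with 5 at an unadjusted p below 0.05, and 1 as higher, Srsf5, beside 2.65% and 1.74%. All 8 called genes kept their direction in each of these fits.

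**Figure D3:**
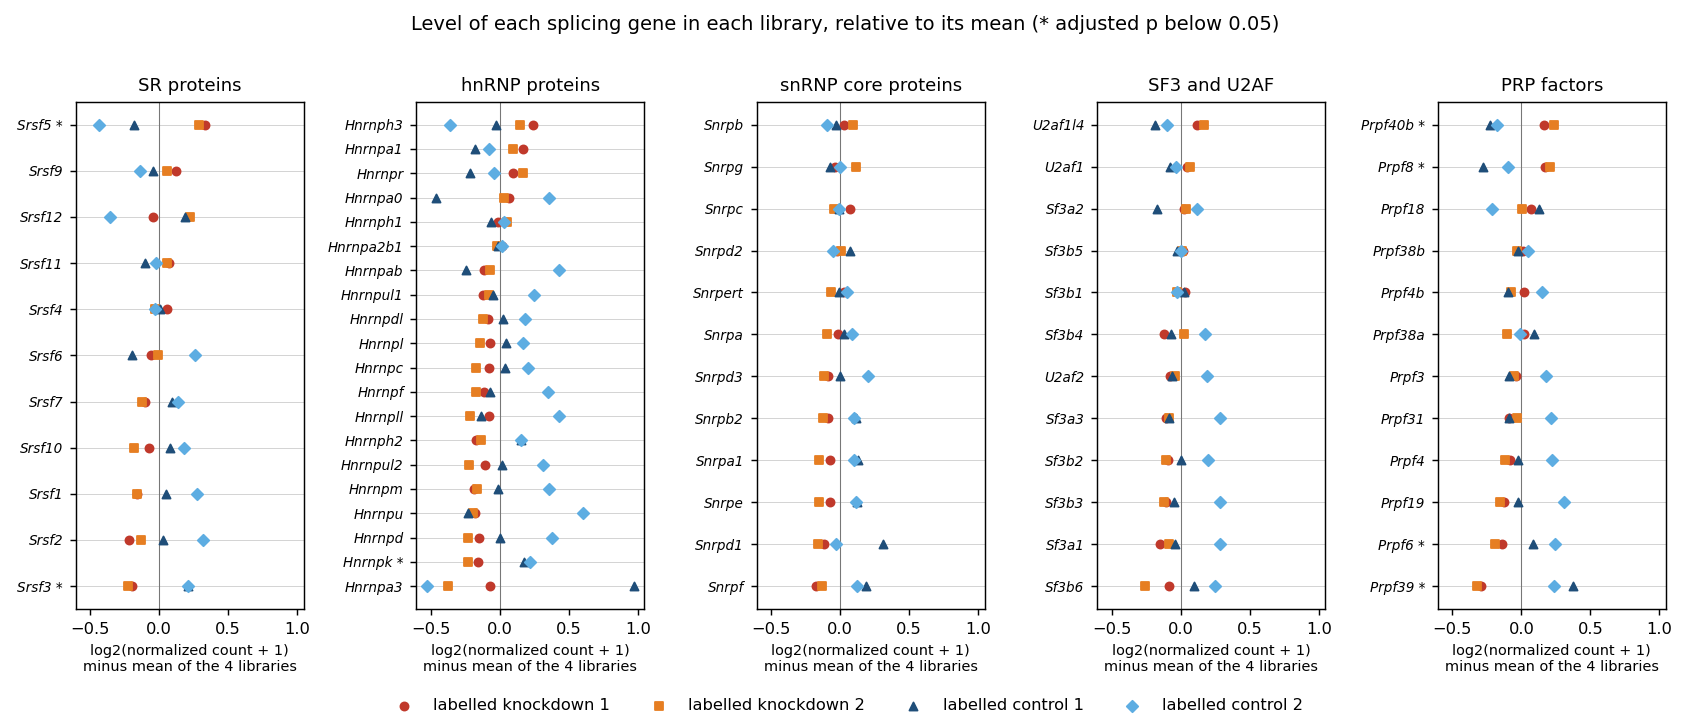
Level of 67 splicing genes in each library, as log2(normalized count + 1) minus the gene's mean over the 4 libraries; asterisks mark an adjusted p below 0.05. Red and orange points (labelled knockdown) lie close together for most genes, while the light blue points of control 2 lie to the right for most hnRNP genes.

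Among the SR proteins, Srsf5 rose and Srsf3 fell, and the other 9 did not pass. The median log2 change of the family was -0.06, and it was 0.01 with upper-quartile scaling and 0.06 with library size only. Its sign thus depended on the scaling. The median of all genes moved in the same way, from -0.01 to 0.05 and 0.10, and stayed above that of the family. Srsf5 (ENSMUSG00000021134, chr12:80945504-80950507, plus strand of GRCm38), a shuttling SR protein, was at 207 and 200.4 normalized counts in the labelled knockdown libraries and at 144 and 121 in the labelled control libraries. Both libraries labelled knockdown were above both controls, and control 2 was the lowest. The means were 204 ± 4.36 and 133 ± 16.2 (SD, n = 2 each), a 1.53-fold rise (log2 change 0.62, SE 0.10, limma adjusted p = 0.0094). Srsf5 passed in every one of the 19 alternative analyses, with 1 control or knockdown library left out among them.

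Srsf3 (ENSMUSG00000071172, chr17:29032628-29043373, plus strand), the smallest SR protein, also acts in mRNA export. It stood at 204 and 200.4 normalized counts in the labelled knockdown libraries and 271 and 271 in the labelled control libraries. The groups were well apart and the controls nearly equal. The means of 202 ± 2.67 and 271 ± 0.508 (SD, n = 2 each) gave a 1.34-fold fall (log2 change -0.42, SE 0.07, limma adjusted p = 0.0118). This call was lost without a variance trend (adjusted p = 0.0599), without knockdown 1 (0.106) and without knockdown 2.

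The most abundant SR genes per kb of exon were Srsf2 and Srsf1, both founding members of the family. Srsf2, at a mean of 299 normalized counts per kb, stood at 752 and 799 against 892 and 1093 (log2 change -0.35, limma adjusted p = 0.0655). Srsf1, at 143 per kb, stood at 726 and 725 against 839 and 981 (log2 change -0.32, limma adjusted p = 0.0558). For both, the libraries labelled knockdown lay below both controls without passing, and control 2 was the highest. Srsf7 and Srsf10, the latter a repressor when dephosphorylated, had the same order, with log2 changes of -0.23 and -0.26 (limma adjusted p = 0.0703 and 0.0712). Srsf9 and Srsf11 had the reverse order, at 103 and 98.2 against 91.8 and 86, and at 278 and 276 against 247 and 260.5. Srsf4, Srsf6 and Srsf12 overlapped between groups, and Srsf12 was the lowest of the family at 1.81 to 3.19 normalized counts.

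Among the 20 hnRNP proteins, Hnrnpk fell, 0 rose with limma, edgeR or DESeq2, and 19 did not pass. At an unadjusted limma p below 0.05 there were 8 lower and 2 higher of the 20, beside 20.2% and 18.6% of all genes. The median log2 change was -0.23 and stayed negative with every scaling tried, from -0.23 to -0.11, but was -0.06 without control 2. Hnrnpk (ENSMUSG00000021546, chr13:58391142-58403343, minus strand), a poly(C)-binding protein of transcription and splicing, was at 558 and 532 normalized counts in the labelled knockdown libraries and 703 and 725 in the labelled control libraries. Replicates lay close together and the groups did not overlap. The means were 545 ± 18.6 and 714 ± 15.0 (SD, n = 2 each), a 1.31-fold fall (log2 change -0.39, SE 0.08, limma adjusted p = 0.0174). The call was lost with a GC correction (adjusted p = 0.0702), without a variance trend (0.0724) and without either library labelled knockdown. Exons of Rmi1, on the other strand, cover 5.1% of the exons of Hnrnpk, and the strand setting of the counting is not given in the sources used here.

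In 3 abundant hnRNP genes the 2 controls lay far apart. Hnrnpu, a nuclear matrix protein, stood at 1177 and 1167 normalized counts in the labelled knockdown libraries, at 1138 in control 1 and at 2021 in control 2 (log2 change -0.37, SE 0.24, limma adjusted p = 0.286). Hnrnpab, the highest of the family at 386 per kb, stood at 976 and 1004 against 894 and 1424 (log2 change -0.19, limma adjusted p = 0.519), and its log2 change was 0.15, past the threshold, without control 2. Hnrnpa0, at 316 per kb, stood at 871 and 849 against 601 and 1065 (log2 change 0.10, limma adjusted p = 0.775), and its log2 change was -0.31, past the threshold, without control 1. In these 3 genes the libraries labelled knockdown lay between the controls. Hnrnpa2b1, an RNA packaging and m6A-linked protein, was at 1240 to 1272 in all 4 libraries and overlapped between groups (log2 change -0.01, limma adjusted p = 0.967).

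Other hnRNP genes had groups that did not overlap but missed the threshold. Hnrnph2 stood at 41.4 and 42.4 against 52.0 and 52.0 (log2 change -0.31, limma adjusted p = 0.0587). Hnrnpd, the AU-rich element binder AUF1, stood at 272 and 258 against 302 and 394 (log2 change -0.38, limma adjusted p = 0.0713). Hnrnph3 had the reverse order, at 61.0 and 57.2 against 50.6 and 40.1 (log2 change 0.38, limma adjusted p = 0.0737).

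Of the 12 snRNP core genes 0 were called by limma, edgeR or DESeq2, and 1, Snrpa1, had an unadjusted limma p below 0.05. The median log2 change was -0.16, and 9 of 12 were negative. With library size only the median was -0.04, where the median of all genes was 0.10. Snrpa1, the U2 A′ protein, stood at 95.1 and 89.9 normalized counts against 109.7 and 107 (log2 change -0.23, SE 0.08, limma adjusted p = 0.0891), without overlap. Snrpb, which encodes the Sm proteins B and B′ and regulates itself through the poison exon type shown above, stood at 193 and 202 against 185 and 177 (log2 change 0.12, limma adjusted p = 0.299). It was thus above both controls by less than the test could separate. Snrpert was the highest per kb, at 456, with 129 and 121 against 126 and 132 normalized counts, and overlapped between groups (log2 change -0.04, limma adjusted p = 0.741).

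The SF3 and U2AF genes had 0 calls of 12 with limma, edgeR and DESeq2, and 1, Sf3b6, with an unadjusted limma p below 0.05. The family median was -0.11 and turned to 0.01 with library size only, where the median of all genes was 0.10. Sf3b1, the scaffold of the branch site pocket and the binding site of splicing inhibitors, stood at 602 and 578 normalized counts against 601 and 579 (log2 change 0.00, SE 0.08, limma adjusted p = 0.997). Sf3b5, the highest of the family at 56.3 per kb, stood at 218 and 217 against 212 and 217 (log2 change 0.02, SE 0.08, limma adjusted p = 0.857). Neither gene differed beyond its error. Sf3b6, the branch point protein p14, stood at 69.0 and 61.2 against 78.6 and 87.6, without overlap (log2 change -0.35, SE 0.10, limma adjusted p = 0.0526).

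The PRP factors held 5 of the 8 calls, with 3 that fell, 2 that rose and 8 of 13 that did not pass. The shares that fell and rose were 23.1% and 15.4%, beside 12.4% and 10.5% of all genes. Their median log2 change was -0.09, or 0.03 with library size only, where the median of all genes was 0.10. Prpf39 (ENSMUSG00000035597, chr12:65036333-65063386, plus strand), a U1 snRNP protein of 5′ splice site recognition, was at 79.7 and 78.2 normalized counts in the labelled knockdown libraries and 127 and 115 in the labelled control libraries. The groups were far apart relative to their spread. The means of 79.0 ± 1.10 and 121 ± 8.48 (SD, n = 2 each) gave a 1.53-fold fall (log2 change -0.61, SE 0.09, limma adjusted p = 0.00715). The call was lost without knockdown 2 (adjusted p = 0.053) and in no other of the 19 alternatives. Exons of Fkbp3, on the other strand, cover 5.01% of the exons of Prpf39.

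Prpf40b (ENSMUSG00000023007, chr15:99295087-99317018, plus strand), related to the yeast U1 protein Prp40, rose. It stood at 47.9 and 50.5 normalized counts in the labelled knockdown libraries and 36.4 and 37.6 in the labelled control libraries. The groups did not overlap and replicates lay close together. The means were 49.2 ± 1.83 and 37.0 ± 0.853 (SD, n = 2 each), a 1.32-fold rise (log2 change 0.40, SE 0.10, limma adjusted p = 0.032). The call was lost with the GC correction, without the block (adjusted p = 0.198) and with it (0.266), with DESeq2 (0.08), without a variance trend (0.0682) and without knockdown 1 (0.21) or knockdown 2 (0.36). The mean transcript GC content of Prpf40b was 58.7%.

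Prpf8 (ENSMUSG00000020850, chr11:75486816-75509449, plus strand), the large U5 protein at the heart of the catalytic centre, was the most abundant PRP factor, at 128 per kb. It stood at 1061 and 1088 normalized counts in the labelled knockdown libraries and at 776 and 879.6 in the labelled control libraries. Both libraries labelled knockdown were above both controls, and the controls had the wider spread. The means were 1075 ± 19.4 and 828 ± 73.2 (SD, n = 2 each), a 1.3-fold rise (log2 change 0.38, SE 0.09, limma adjusted p = 0.0307). The call was lost with the GC correction, without the block (adjusted p = 0.0546) and with it (0.0823), with no filter (0.0606), without a variance trend (0.0931) and without knockdown 1 (0.192) or knockdown 2 (0.287). Prpf6 (ENSMUSG00000002455, chr2:181591868-181655660, plus strand), which bridges U5 and U4/U6 in the tri-snRNP and was second per kb at 31.7, fell 1.26-fold. It stood at 109.7 and 106 against 129 and 144 (log2 change -0.33, SE 0.09, limma adjusted p = 0.0389). Of the 8 calls this one was lost most often, in 8 of the 19 alternatives. Prpf19, a ubiquitin ligase of the activated spliceosome, stood at 152 and 149 against 163 and 206 (log2 change -0.29, limma adjusted p = 0.121).

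Of the 68 genes, the authors' deposited table calls 3 as higher and 2 as lower, and all 5 were also called here. Of all genes tested, 12.2% were called as higher and 12% as lower in the authors' deposited table. The adjusted p there, from the authors' deposited table, was 1.05e-05 for Prpf39, 0.00271 for Srsf5, 0.0333 for Hnrnpk, 0.0212 for Prpf8 and 0.0153 for Prpf40b. Srsf3 and Prpf6 missed the threshold in the authors' deposited table, at 0.0587 and 0.0503.

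The median log2 change of all genes tested rose with GC content. The splicing genes had a median transcript GC content of 47.2%, against 51.2% for all genes tested. Over 5 equal bins of genes from low to high GC content, the median log2 change of all genes was -0.14, -0.08, -0.03, 0.08 and 0.17. The bins held 29, 14, 16, 7 and 2 splicing genes, with medians of -0.23, -0.23, -0.04, -0.10 and 0.23, which did not rise at each step. Of the 5 genes that fell, 4 were in the lowest bin, Srsf3, Hnrnpk and Prpf39 among them, as was Srsf5, which rose. These were 4 and 1 of the 29 splicing genes in that bin, where 19.7% of all genes fell and 4.47% rose. With the GC trend removed, 3 splicing genes fell and 2 rose, beside 12.6% and 8.72% of all genes, and the median was -0.13. Srsf3, Srsf5, Prpf39 and Prpf6 still passed, and Hnrnph3 was called as higher (adjusted p = 0.0286). The part of GC content in these changes was not tested beyond this correction.

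**Figure D4:**
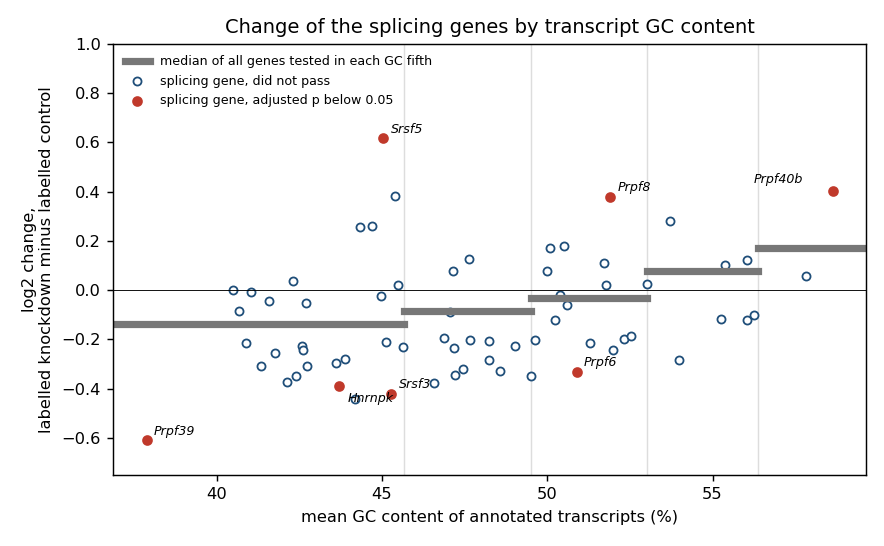
Log2 change of 67 splicing genes against the mean GC content of their annotated transcripts; grey bars are the medians of all genes tested in each of 5 GC bins. The grey bars climb from -0.14 to 0.17, and Prpf39 lies at the lowest GC content.

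Of the 34 splicing genes with an annotated NMD transcript, 4 fell and 2 rose with a median of -0.10, and of the 34 without, 1 fell and 1 rose with a median of -0.20. Over all genes tested, 12.7% of those with such a transcript fell and 9.85% rose, and of those without 12.3% fell and 10.7% rose, with a median of -0.01 in both classes. Poison exons are annotated for genes that fell (Srsf3 and Prpf39 among them) and for genes that did not pass (Srsf4, Srsf7, Srsf9 and Srsf11 among them).

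The proximal promoters of the genes with the largest rise and fall are shown next, for comparison of their elements. RefSeq windows of 300 bases, from 250 before to 50 after the start (GRCm38.p6), matched 58 of the 68 genes, in 76 windows. Motifs were searched on both strands (a CCAAT box, a GC box, an ETS core, an E-box, a TATA box and an NRF1 core). Their matches are in capitals below, and adjoining matches can overlap. Only 200 bases of each window are printed, chr12:80945299-80945498 for Srsf5 and chr12:65036134-65036333 for Prpf39, both on the plus strand.
Srsf5: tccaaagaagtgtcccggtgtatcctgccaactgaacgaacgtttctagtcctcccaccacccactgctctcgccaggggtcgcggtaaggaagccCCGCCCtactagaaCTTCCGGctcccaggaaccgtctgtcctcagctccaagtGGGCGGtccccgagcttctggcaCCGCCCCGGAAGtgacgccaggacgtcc
Prpf39: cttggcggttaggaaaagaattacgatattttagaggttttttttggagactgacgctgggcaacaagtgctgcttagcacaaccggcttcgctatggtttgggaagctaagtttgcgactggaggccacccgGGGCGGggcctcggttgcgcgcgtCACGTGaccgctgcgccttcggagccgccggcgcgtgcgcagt
The printed Srsf5 sequence held GC boxes and ETS cores, and that of Prpf39 a GC box and an E-box. The ETS core was searched as CCGGAAG. Over the 76 windows 32.9% held it, against 16.4% of the windows of all genes tested and 8.86% of all windows of this length. In the same order the CCAAT box, spelled CCAAT, was found in 48.7%, 37.6% and 37.4%. The GC box, spelled GGGCGG, was found in 67.1%, 62.6% and 35.7% of the windows. The E-box, spelled CACGTG, was found in 14.5%, 9.99% and 7.15% of the windows. The TATA box, spelled TATAAA, was found in 7.89%, 6.92% and 13.6%, and the NRF1 core in 1.32%, 1.99% and 0.971%. These matches describe the letters in the windows and not binding.

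Several of these genes have near-identical copies with rows of their own in the table. A copy was counted as a gene with at least 95% identity over at least 50% of the coding sequence, found with BLAST, and 20 of the 68 genes had 1 or more. The table held 43 such rows for 17 of the genes, 41 of them with 1 exon and 41 annotated as pseudogenes, and in 11 of the 17 genes the copies together held more than the gene's own row. The median level per kb was 39.7 in the 47 genes with no copy (Snrpert, itself a copy of Snrpe with no coding sequence, was left out), 17.1 in the 20 with at least 1 and 9.59 in the 6 with at least 3. Reads that match both a gene and its copy cannot be told apart from gene counts, so the levels and changes of these 17 genes are uncertain. Of the 18 copy rows that were tested, 6 fell and 0 rose with limma, beside 12.4% and 10.5% of all genes. At an unadjusted limma p below 0.05, 1 was higher, and 0 were higher with edgeR or DESeq2.

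For Hnrnpk the single copy row, Gm7964, was higher than the gene itself, at 847 and 805 normalized counts in the labelled knockdown libraries and 981 and 1040 in the labelled control libraries. It also fell (log2 change -0.29, limma adjusted p = 0.0485). For Srsf5 the copy Gm12966 stood at 286 and 309 against 248 and 270.2 and did not pass (log2 change 0.20, limma adjusted p = 0.134). Adding it gave 493 and 509 against 392.3 and 391, and the log2 change dropped to 0.35 (SE 0.08, adjusted p = 0.02). For Srsf3 the copy Gm9761 fell like the gene, at 159.9 and 152 against 209 and 222 (log2 change -0.46, limma adjusted p = 0.0114). With copies added, the log2 change of Srsf3 was -0.43 (adjusted p = 0.0119).

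The own row was a small part of the sum in several genes, and the sum was called in U2af1, Hnrnpa1 and Hnrnpa3 but not in others. The sums of Snrpf (own row 6.66%), Snrpg (6.75%) and Sf3b4 (15.8%) had log2 changes of -0.16, 0.24 and -0.10 and did not pass (adjusted p = 0.266, 0.0733 and 0.561). U2af1, the small U2AF subunit that reads the AG of the 3′ splice site, stood at 12 and 12.2 normalized counts against 11 and 11.3 alone (log2 change 0.11, limma adjusted p = 0.635). Its copy Gm10232 stood at 78.8 and 69.1 against 103 and 118 and fell. The sum, of which U2af1 held 11.2%, was 90.7 and 81.3 against 114 and 129.7 and fell (log2 change -0.50, SE 0.10, adjusted p = 0.0179). The direction of U2af1 thus turned when the copy was added. Hnrnpa1, a major exon repressor, stood at 25.4 and 24.1 against 19.7 and 21.3 alone (log2 change 0.26, limma adjusted p = 0.178). Its sum with 6 copy rows was 107 and 94.9 against 128 and 132 and fell (log2 change -0.36, SE 0.09, adjusted p = 0.032), again in the other direction. Hnrnpa3, at 7.55 and 5.92 against 16.6 and 5.20 alone (log2 change -0.44, limma adjusted p = 0.499), held 9.91% of its sum, which was 78.0 and 73.5 against 103 and 101 and fell (log2 change -0.43, SE 0.09, adjusted p = 0.0167). With copies added to every gene that has them, 8 of the 68 fell (11.8%, beside 12.5% of all genes) and 3 rose (4.41%, beside 10.6%). This sum was chosen after seeing the data.

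**Figure D5:**
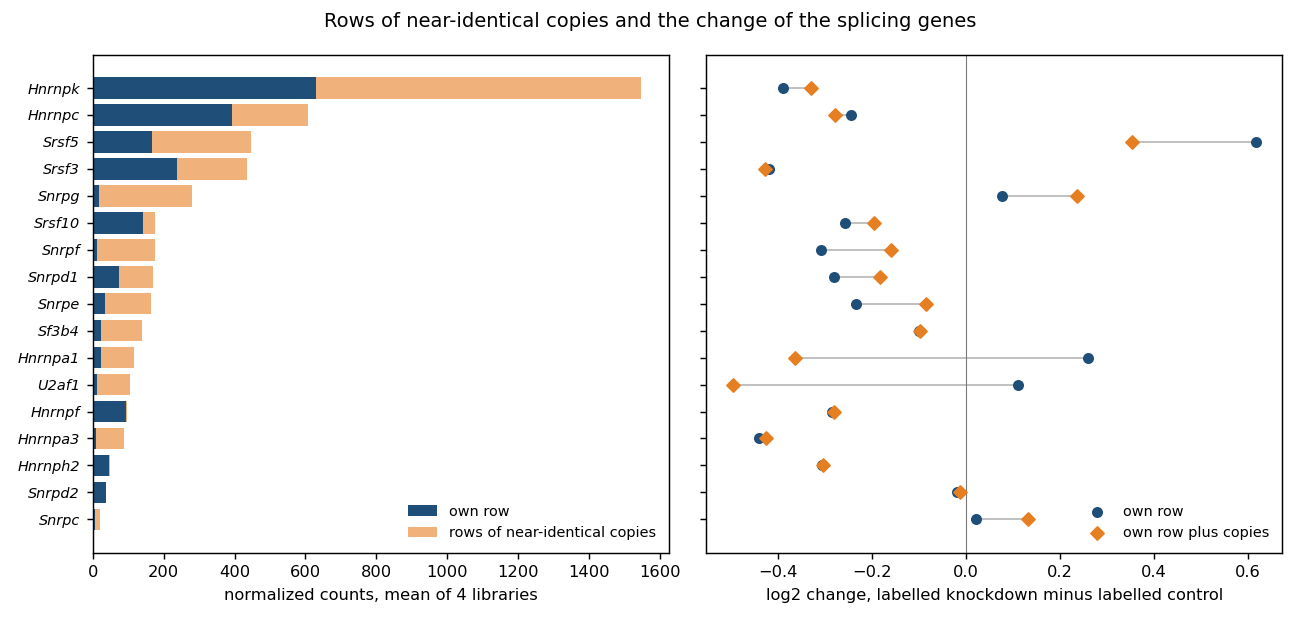
Left, mean normalized counts over the 4 libraries of the 17 splicing genes with copy rows, split into the own row and the copies; right, log2 change of the own row (circles) and of the sum (diamonds), labelled knockdown minus labelled control. U2af1 and Hnrnpa1 cross from 0.11 and 0.26 to -0.50 and -0.36, and Srsf5 moves from 0.62 to 0.35.

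Splicing genes outside the name rule are given for comparison from 6 lists of 145 genes, of which 141 were tested. Of these 29 fell (20.6%, beside 12.4% of all genes) and 7 rose (4.96%, beside 10.5%), with a median log2 change of -0.12. The list of other splicing regulators had 13 of 39 that fell (33.3%) and 1 that rose (2.56%). Syncrip, an hnRNP-type RNA binder also called hnRNP Q, stood at 160.1 and 143 normalized counts against 292 and 289 (log2 change -0.93, limma adjusted p = 0.00268). Ptbp1, the polypyrimidine tract repressor of neuronal exons, stood at 469.8 and 449.9 against 643 and 741 and fell (log2 change -0.59, limma adjusted p = 0.00919). Its paralog Ptbp2, whose mRNA Ptbp1 is known to restrain through skipping of an exon, stood at 52.1 and 59.2 against 33.9 and 33.7 and rose (log2 change 0.70, limma adjusted p = 0.00847). Taf15 fell by 0.55 on the log2 scale. Khdrbs2, with 0 to 1 reads a library, was not tested.

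Among 34 factors of the spliceosome complexes 10 fell (29.4%) and 2 rose (5.88%), beside 12.4% and 10.5% of all genes. Cdc5l, Crnkl1 and Cwc15, proteins of the activated spliceosome, fell by 0.61, 0.51 and 0.72 on the log2 scale. The DEAD-box helicases Ddx23 and Ddx41 rose, with log2 changes of 0.32 and 0.36. Snrnp200, the U5 helicase that unwinds U4/U6 and binds Prpf8, stood at 616.5 and 620.3 normalized counts against 447 and 459.8 and was the 1 called gene of 16 other snRNP and LSm proteins (log2 change 0.45, limma adjusted p = 0.0107). In Snrnp200 and Prpf8 both libraries labelled knockdown lay above both controls, as they did in 32.1% of all genes tested. The calls of Ddx23 and Ddx41 were lost with the GC correction (adjusted p = 0.136 and 0.27).

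Among 26 SR-related proteins and SR kinases 3 fell and 3 rose (11.5% each), beside 12.4% and 10.5% of all genes. All 3 rises were of Clk kinases, which phosphorylate SR proteins in the nucleus: Clk1, Clk2 and Clk4 had log2 changes of 0.43, 0.35 and 0.62. Clk3, of the same family, overlapped between groups, at 43.2 and 43.2 against 48.2 and 36.9 (log2 change 0.03, limma adjusted p = 0.877). The call of Clk2 was lost with the GC correction (adjusted p = 0.134) and in DESeq2 (0.123). Tra2b, Luc7l2 and the cytoplasmic SR kinase Srpk2 fell, by 0.49, 0.48 and 0.44 on the log2 scale. Of 16 snRNP assembly factors 3 fell (18.8%, beside 12.4% of all genes). They were Gemin6, Gemin7 and Wdr77, down by 0.56, 0.68 and 0.48 on the log2 scale. Of the same 16 genes 0 rose with limma, edgeR or DESeq2, nor at an unadjusted limma p below 0.05. Of 10 proteins of the minor spliceosome 0 were called by limma or DESeq2, with 1 higher and 2 lower at an unadjusted limma p below 0.05, and edgeR called 1 as higher. Its 2 most abundant genes per kb of exon were Pdcd7, at 54.6 and 51.7 normalized counts against 64.0 and 70.8, and Snrnp25, at 53.4 and 51.7 against 58.4 and 55.2. Lsm3 (3 to 4 reads a library), Lsm5 (3 to 12) and Srpk3 (0 to 3) were not tested. Without knockdown 2, limma called 3 of the other splicing regulators and 1 spliceosome complex factor as lower, and 0 genes of these lists as higher, although some had an unadjusted p below 0.05 (2 of the regulators, 1 SR-related gene and 1 other snRNP gene).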

How the data were processed

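Per the labels' protocols, poly(A) libraries of 4 CCE samples were made from 1 µg total RNA and read on a HiSeq as single ends of 100 bp. The submitters' processing notes name HTSeq 0.11.2, edgeR 3.26.8, SAMtools 1.9, Bowtie2 2.3.4.3 and the build mm9, without roles. Strand setting and annotation were not given in the sources used here. For the counts, the authors deposited 1 table with a normalized signal (normalized count) per gene and sample. Its values are whole multiples of 1 read's worth, for 100% of values within a tolerance of 0.001, so whole reads were recovered; edgeR's quasi-likelihood test on them called 3742 genes, against 3418 with limma. The authors' comparison in that table holds, per the file headers, p-values, a likelihood ratio score, log2 fold changes and mean log2 CPM.

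Values as log2(signal + 1) were fitted with limma 3.58.1 (variance trend, two-sided) in R 4.3.3, so folds of low genes are understated. Genes passed filterByExpr of edgeR 4.0.16 on the recovered reads (14890 of 32592), p-values were adjusted by Benjamini-Hochberg over them, and an adjusted p below 0.05 was called. With 2 samples a group, the smallest p of an exact permutation test is 0.333. The members and lists were chosen with earlier results of these data known. Named in each family were up to 6 called genes per direction and the 2 highest per kb; in each other list, up to 3 called genes per direction or the 2 highest; other genes named were chosen after their values were seen. 1 gene that the rule takes is not reported here, although counts, sums and medians include it. GC content, exons, copies (BLAST 2.17.0) and GRCm38 coordinates came from GENCODE M21, in which 32590 gene IDs were found; none was converted from mm9. Replicates were compared first: the chi-square of reads per degree of freedom was 2.01 for knockdown and 13.8 for control, so none was counted as a duplicate. Floors cover counting error only. There were 18 alternatives set out and 1 added, among them edgeR, DESeq2 1.42.0, other scalings, filters and pseudocounts, GC correction and leaving out each library. The scripts were tested on simulated data.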

Additional observations from a re-analysis of the deposited data

How the results depend on the processing

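The 5 splicing genes that fell, the 3 that rose and their median log2 change of -0.19 were recomputed under 19 alternatives, of which adding near-identical copies was chosen after seeing the data. With library size only, 3 fell and 6 rose and the median was -0.068; without a variance trend 1 fell and 1 rose, and Eif4a2 (log2 change 0.80) did not pass (adjusted p = 0.0581); with the GC correction 3 fell; with copies added 8 fell. With the replicate number as a block 13 fell (19.1%, beside 16% of all genes) and 4 rose (5.88%, beside 15.1%). The correlation of the deviations of knockdown 1 and control 1 was 0.0356. With 2 samples a group this value cannot show whether the replicate numbers pair the samples. Leaving out 1 library gave 0 to 36 that fell, 1 to 11 that rose and medians of -0.24 to -0.070. Among single genes, leaving out 1 library turned the direction of Hnrnpa0 (-0.31 to 0.52), Hnrnpab (-0.52 to 0.15) and Srsf6 (-0.29 to 0.17), and adding copies that of Hnrnpa1 (-0.36) and U2af1 (-0.50). The cause was not tested beyond what each alternative's construction shows. Across alternatives 41 of 68 genes never changed sign, and neither did any of the 8 called ones. With 1 library left out, the lone sample of a group is assumed to vary like the other group. With 2 libraries a group and 4604200 reads in control 2, changes smaller than those called were largely not separable from replicate spread. Called changes were 0.33 to 0.62 in size on the log2 scale, with SE 0.07 to 0.10. Some changes of that size also missed the threshold: genes that did not pass had sizes up to 0.44 and SE up to 0.44.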
